A study of Moricandia arvensis and Moricandia suffruticosa and Moricandia moricandioides with 78 samples.

Results

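The transcriptome of droughted Moricandia moricandioides (Mmo) was compared before and after rewatering, between 3 libraries taken at severe drought (T2) and 4 libraries taken after rewatering (RW). These 7 libraries were all those of Mmo labelled with water stress at these sampling points, of 78 libraries in the series, and all genes were analysed. The study grew Mmo, a C3 species, beside the C2 species M. arvensis (Mav) and M. suffruticosa, withheld water from potted plants, and sequenced leaf RNA of droughted and well-watered plants at successive stages of soil drying. Stages were set by stomatal conductance (Gs): T2 libraries are labelled 10% Gs and RW libraries 100% Gs, the latter taken once rewatered pots held as much soil water as control pots. The paper describes the droughted plants at RW as rewatered for a day. Whether Gs had recovered in these plants was not analysed here. Control plants of the same line, watered throughout, gave 2 Mmo libraries at T2 and 4 at RW. All Mmo plants belonged to the accession that the labels call Osnabruck, and the tissue was mature leaf.

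Plants meet soil drying through abscisic acid (ABA), a hormone that closes stomata and switches on genes for protective proteins, compatible solutes and chaperones. ABA binds PYR/PYL receptors, which then hold back the PP2C phosphatases, so that SnRK2 kinases can activate ABF transcription factors. After rewatering this programme is shut down while photosynthesis, water transport and growth resume. Names and roles given below are those of the Arabidopsis genes to which the Moricandia reads were assigned.

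Expression was measured as estimated read counts per Arabidopsis gene and is given as CPM, the count of a gene relative to the total of its library, scaled over the 13 Mmo libraries of T2 and RW. Total counts of the 7 droughted libraries lay between 24399329 and 37216697. In both groups some libraries were nearly alike. M17s and M19s at T2, and M26s, M27s and M28s at RW, differed by 1.91 to 2.16 times the squared difference that counting noise alone gives, against 51.1 to 60.1 for the other pairs of droughted libraries within a stage, so each stage held 2 clearly distinct profiles. In values below, T2 libraries are in the order M17s, M19s, M20s and RW libraries in the order M25s, M26s, M27s, M28s. The labels call every library a biological replicate, each with its own number, and nothing else tells why some are nearly alike. The p-values therefore measure the spread between these libraries, which may in part be technical. All T2 libraries were run in lane 6 and all RW libraries in lane 7, as the file names give it, so lane and sampling point cannot be told apart; the 6 controls were all run in lane 6. Marker genes of leaf mesophyll summed to between 18433 and 31876 CPM at T2 and between 26213 and 41756 CPM at RW, and those of guard cells to between 42 and 146 CPM at T2 and between 57.5 and 73 CPM at RW. The 6 root markers summed to between 3.74 and 6.95 CPM at T2 and between 2.72 and 4.50 CPM at RW, with 3 of them (COBL9, EXPA7 and NRT2.1) at 0 in all 7 libraries. The 3 seed markers summed to between 3.40 and 11 CPM at T2 and between 0 and 14.8 CPM at RW, and the 3 flower markers to between 0.420 and 0.762 CPM at T2 and between 0.654 and 4.3 CPM at RW, with AP3 at 0. The flower gene PI was at 0.662, 0.604 and 0.42 CPM at T2 and 0.517, 3.19, 3.3 and 3.24 CPM at RW (log2 fold change 2.17, adjusted p = 0.044), a call lost without M20s. The part of these cell types in the results was not tested. In bulk leaf RNA, fewer cells of a type and less RNA per cell cannot be told apart.

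**Figure D1:**
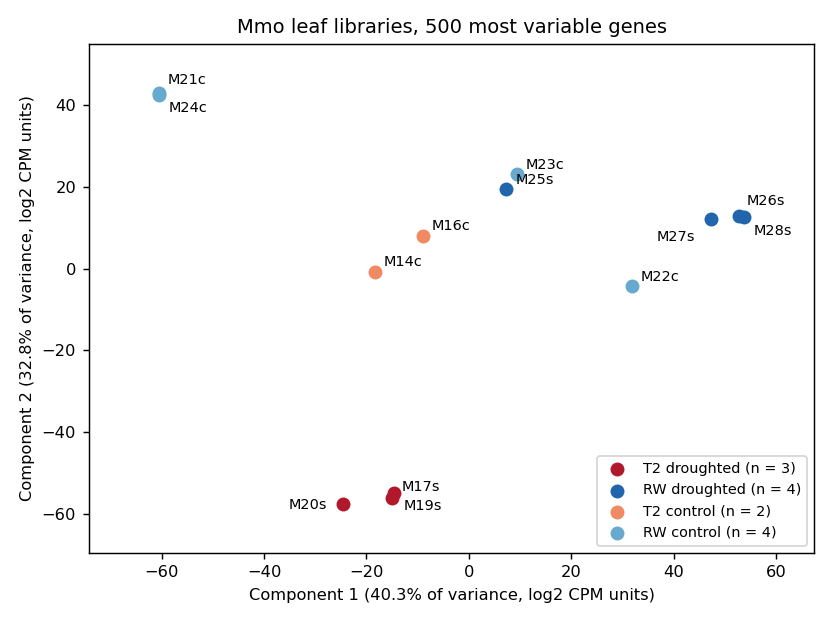
First 2 principal components of the 500 most variable genes in the 13 Mmo libraries (log2 CPM); each point is 1 library, coloured by group. The T2 droughted libraries lie together at the bottom, between -54.9 and -57.4 on component 2, M25s lies at 7.31 on component 1, apart from M26s, M27s and M28s at 47.4 to 53.8, and the 4 RW controls are spread from -60.5 to 31.8 on component 1.

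M25s stood apart from the other RW libraries and M20s, less far, from the other T2 libraries. In the plot of principal components M25s lay beside the RW control M23c, and the near-identical controls M21c and M24c lay far from the other controls. The genes of the circadian clock also separated the groups. The summed level of CCA1, LHY, PRR9 and RVE8, which peak around dawn in Arabidopsis, was 882, 877 and 639 CPM at T2 and 59.2, 96.8, 91.2 and 89.8 CPM at RW. The summed level of TOC1, ELF4, LUX and PRR5, which peak around dusk, was 43.3, 41.4 and 148 CPM at T2 and 540.0, 549, 549.9 and 538 CPM at RW. Both sets were chosen from the clock genes after their values were seen. T2 leaves were collected at midday and the hour at RW was not given in the sources used here, so the sampling hour and rewatering cannot be told apart in genes with a daily rhythm.

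After rewatering, 1556 genes were higher and 2037 lower than at T2, of 20192 genes tested (edgeR quasi-likelihood test, Benjamini-Hochberg adjusted p under 0.05 and a log2 fold change beyond 1 in size). These calls are 7.71% and 10.1% of the genes tested, and the median log2 fold change of all genes tested was 0.00. The libraries of T2 and RW did not overlap in 40.9% of all genes tested and in 3407 of the 3593 called genes. Without M25s the counts were 2133 higher and 2846 lower, and 3348 of the 3593 genes were called in the same direction. With the near-identical libraries summed, which left 2 profiles at each stage, edgeR called 0 genes, 3091 genes had an unadjusted p under 0.05, and DESeq2 called 618 higher and 1031 lower. The summed profiles fitted together with all other Mmo conditions gave 297 genes higher (1.37%) and 354 lower (1.63%), 3% of genes tested together, of which 635 were among the calls above and in the same direction. This last fit uses the same droughted libraries, so that overlap is largely built in. It was added after seeing the data and is called the pooled fit of summed profiles below. Fold changes and adjusted p-values below are from the comparison of the 7 libraries unless another fit is named.

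**Figure D2:**
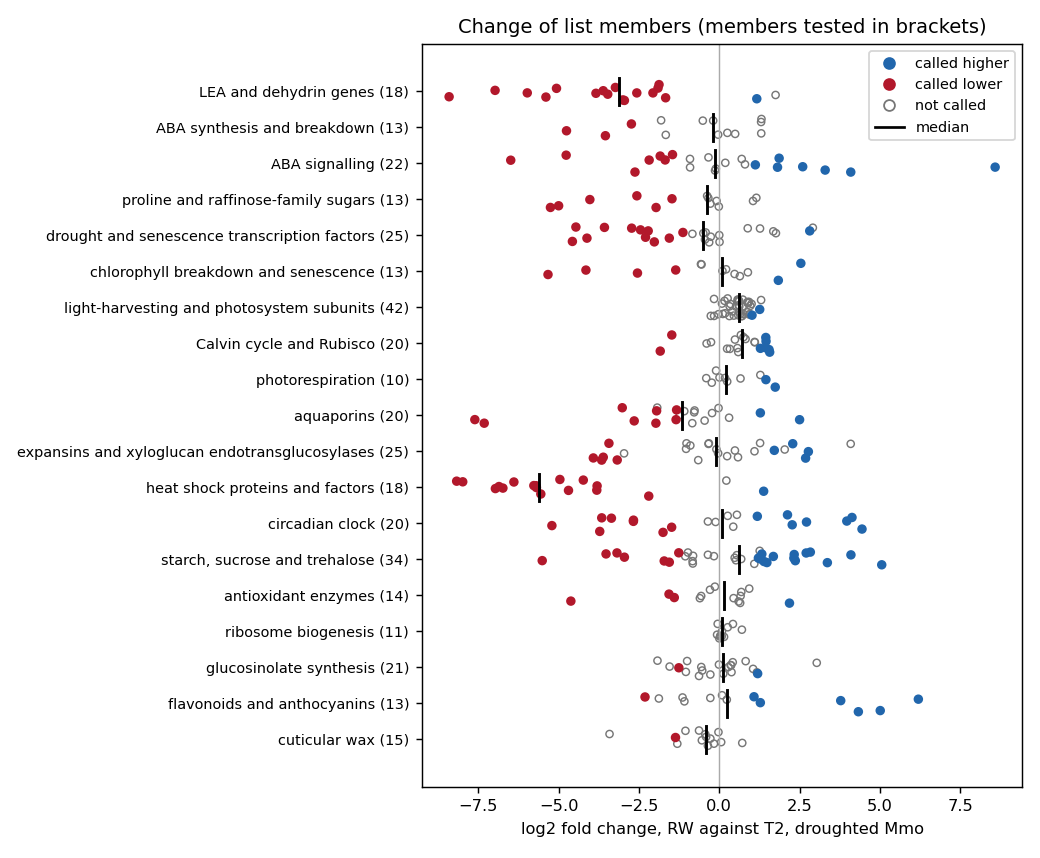
Log2 fold change (RW against T2, droughted Mmo) of every tested member of 19 gene lists, one point per gene; filled points passed adjusted p under 0.05 with a log2 fold change beyond 1 in size, and black bars are list medians. Heat shock and LEA genes lie far to the left, with medians of -5.62 and -3.12, while the clock and starch lists hold called genes on both sides.

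Most genes for LEA proteins and dehydrins, hydrophilic proteins that protect membranes and other proteins when cells lose water, fell after rewatering. Of 18 tested members, 16 fell and 1 rose, beside 10.1% and 7.71% of all genes tested. The median log2 fold change of the list was -3.12 against 0.00 for all genes tested. RAB18, an ABA-induced dehydrin and the most abundant member at T2, was at 1459, 1298 and 3036 CPM at T2 and 24, 12.2, 12.6 and 12.9 CPM at RW (log2 fold change -6.98 ± 0.48 (SE), adjusted p = 0.00017). The RW controls were at 15.9, 21.7, 11.5 and 14.8 CPM, so M26s, M27s and M28s lay within their range and M25s slightly above it. LEA4-5, a small LEA protein, went from 77.2, 64.2 and 61.6 CPM to 0, 0.176, 0.428 and 0.172 CPM, near the limit of detection at RW (log2 fold change -8.41 ± 0.62 (SE), adjusted p = 0.00021). RD29B, widely used as a reporter of ABA action, was at 615, 578 and 349.5 CPM at T2 and 21.3, 12.9, 14.8 and 12.8 CPM at RW (log2 fold change -5.06 ± 0.30 (SE), adjusted p = 0.00011). COR47 and ERD10, dehydrins that respond to cold and drying, had log2 fold changes of -3.23 and -2.95, with adjusted p-values of 0.00092 and 0.0019. XERO1 and LEA18 were weakly expressed. XERO1 was at 6.65, 3.78 and 15.5 CPM at T2 and 0.551, 0, 0.0306 and 0 CPM at RW (log2 fold change -5.97 ± 1.29 (SE), adjusted p = 0.014), and LEA18 was at 4.72, 3.76 and 3.55 CPM at T2 and 0.0344, 0.201, 0.0918 and 0.0286 CPM at RW (log2 fold change -5.39 ± 0.59 (SE), adjusted p = 0.001). T2 and RW libraries did not overlap in any of these genes, as in 40.9% of all genes tested. LEA4-5, RAB18, XERO1 and LEA18 were named by a rule that required this. The member that rose was ERD7, at 49.7, 46.6 and 40.8 CPM at T2 and 108, 101, 101 and 103 CPM at RW (log2 fold change 1.17 ± 0.12 (SE), adjusted p = 0.00081). LEA4-1 was the other member above 0, and its values of 0.662, 0.762 and 25.2 CPM at T2 and 0.0344, 39.5, 38.4 and 40.6 CPM at RW overlapped between the groups (log2 fold change 1.75 ± 1.72 (SE), adjusted p = 0.49). The list gave 1 higher and 16 lower without M25s, and 0 higher and 6 lower in the pooled fit of summed profiles.

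**Figure D3:**
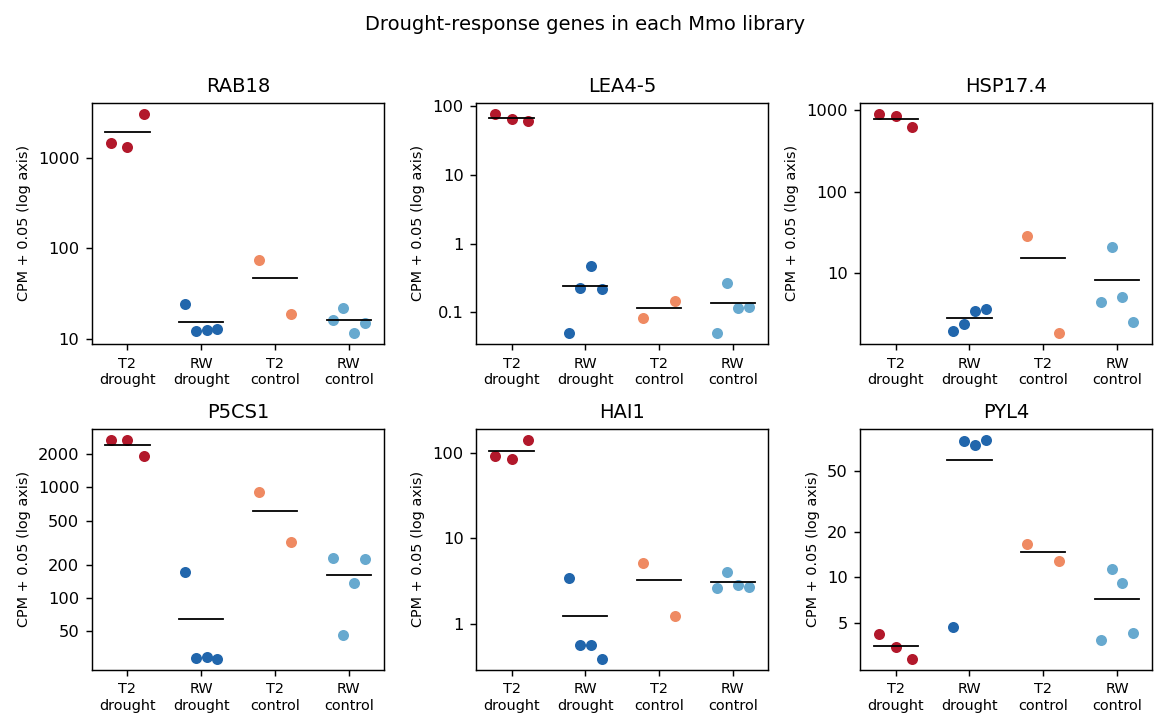
Level of 6 drought-response genes in each of the 13 Mmo libraries (CPM plus 0.05, log axis), by group; each point is 1 library and lines are group means. The first 5 genes are higher in all 3 T2 droughted libraries than in any other library, while PYL4 is high in M26s, M27s and M28s at 74.2 to 80.9 CPM and low in M25s at 4.68 CPM.

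In the ABA pathway, few genes of synthesis and breakdown passed the test, and signalling genes changed in both directions. Of 13 tested genes of ABA synthesis and breakdown, 0 rose and 3 fell, a share of 23.1% called, with a median of -0.19. Of all genes tested, 7.71% rose and 10.1% fell. The list gave 1 higher and 3 lower without M25s, 1 and 5 without M20s, and 0 and 1 in the pooled fit of summed profiles. NCED3, which encodes the rate-limiting enzyme of drought-induced ABA synthesis, was at 135, 131 and 20.0 CPM at T2 and 38.3, 29.7, 27.1 and 25.9 CPM at RW. M20s lay below all 4 RW libraries and the change did not pass the test (log2 fold change -1.67 ± 0.57 (SE), adjusted p = 0.065). The members that fell were CYP707A4, an ABA 8'-hydroxylase that breaks ABA down, NCED9, a further synthesis enzyme, and BGLU18, a glucosidase that frees ABA from its glucose ester. CYP707A4 was at 18.6, 19.2 and 33 CPM at T2 and 2.69, 2.26, 1.84 and 1.35 CPM at RW (log2 fold change -3.54 ± 0.31 (SE), adjusted p = 0.00042), and NCED9 was at 11.8, 10.0 and 2.29 CPM at T2 and 0.792, 1.46, 1.5 and 1.09 CPM at RW (log2 fold change -2.73 ± 0.55 (SE), adjusted p = 0.011). BGLU18 was at 708, 729 and 1010.4 CPM at T2 and 74.5, 6.55, 35.6 and 5.18 CPM at RW (log2 fold change -4.75 ± 0.97 (SE), adjusted p = 0.011), but the RW controls ranged from 54 CPM in M23c to 6065 CPM in M21c.

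Of 22 tested ABA signalling genes, 7 rose and 7 fell, beside 7.71% and 10.1% of all genes tested. All of the signalling genes that fell encode PP2C phosphatases or ABF transcription factors, and those that rose were 6 receptors and ABF1. Among the phosphatases, which are themselves induced by ABA and restrain its signal, HAI1 was at 91.8, 83.4 and 142 CPM at T2 and 3.44, 0.527, 0.52 and 0.344 CPM at RW (log2 fold change -6.49 ± 0.86 (SE), adjusted p = 0.0022). HAI2 was at 83.2, 77.6 and 86.1 CPM at T2 and 3.0, 3.01, 2.81 and 3.32 CPM at RW, with almost no spread within either group (log2 fold change -4.76 ± 0.12 (SE), adjusted p = 8.8e-06). ABI2 and HAB1 had log2 fold changes of -2.62 and -2.18, with adjusted p-values of 4.0e-05 and 0.00015. ABI1, the closest relative of ABI2, was at 182, 169 and 129 CPM at T2 and 139, 152, 143 and 152 CPM at RW and did not pass the test (log2 fold change -0.13 ± 0.15 (SE), adjusted p = 0.56), and PP2CA missed the fold threshold (log2 fold change -0.91 ± 0.14 (SE), adjusted p = 0.004). Of the receptors, PYL5 was almost absent at T2, at 0.0301, 0.0526 and 0.0382 CPM, and was at 0.861, 24.1, 21.3 and 22.3 CPM after rewatering (log2 fold change 8.58 ± 1.43 (SE), adjusted p = 0.0052). PYL4 was at 4.18, 3.42 and 2.86 CPM at T2 and 4.68, 78.8, 74.2 and 80.9 CPM at RW (log2 fold change 4.09 ± 0.92 (SE), adjusted p = 0.016). In both receptor genes M25s was far below the other 3 RW libraries, and for PYL4 it was hardly above the T2 libraries. PYL8 was higher in every RW library, at 4.03, 3.99 and 3.09 CPM at T2 and 19.1, 42.7, 41.4 and 43 CPM at RW (log2 fold change 3.29 ± 0.34 (SE), adjusted p = 0.0008), and PYR1 rose from 25.5, 21.3 and 19.8 CPM to 32.3, 98.1, 93.6 and 100.2 CPM (log2 fold change 1.86 ± 0.40 (SE), adjusted p = 0.013). Among the transcription factors that bind ABA response elements, ABF2, ABF3 and ABF4 fell, with log2 fold changes of -1.68, -1.84 and -1.46 and adjusted p-values of 0.00024, 0.0025 and 0.00037. ABF1 moved the other way, from 10.3, 11.1 and 24.7 CPM to 66.8, 104, 99 and 102 CPM (log2 fold change 2.59 ± 0.37 (SE), adjusted p = 0.0029), and it was also high in the RW controls M21c, M23c and M24c, at 45.1, 88.6 and 45.5 CPM. OST1, the SnRK2 kinase that acts in guard cells, missed the fold threshold (log2 fold change 0.80 ± 0.18 (SE), adjusted p = 0.018). The pooled fit of summed profiles called 1 signalling gene higher and 3 lower.

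Genes for the synthesis of proline and galactinol fell after rewatering. Of 13 tested genes of proline and raffinose-family sugar metabolism, 6 fell and 0 rose, beside 10.1% and 7.71% of all genes tested. The median of the list was -0.38. P5CS1, the rate-limiting enzyme of proline synthesis under stress, was among the most abundant genes that fell, at 2687, 2704 and 1929 CPM at T2 and 172, 28.4, 29 and 28.2 CPM at RW (log2 fold change -5.25 ± 0.81 (SE), adjusted p = 0.004). The RW controls were at 232, 45.9, 138 and 225 CPM, so M25s lay within their range and M26s, M27s and M28s below all 4 of them. P5CS2, its constitutive relative, fell from 337, 346 and 256 CPM to 51.4, 55.2, 52 and 54 CPM (log2 fold change -2.56 ± 0.15 (SE), adjusted p = 0.00011). Galactinol synthases make the first committed compound of raffinose synthesis. GOLS1 was at 198, 196 and 27.7 CPM at T2 and 5.86, 3.84, 3.82 and 4.15 CPM at RW (log2 fold change -5.0 ± 0.66 (SE), adjusted p = 0.0022), and GOLS2 was at 115, 112 and 25.8 CPM at T2 and 4.68, 5.17, 4.89 and 6.01 CPM at RW (log2 fold change -4.03 ± 0.50 (SE), adjusted p = 0.0017). In both galactinol synthases M20s was well below the other T2 libraries but above every RW library. PRODH1, the proline dehydrogenase that starts proline breakdown, was at 5.02, 5.23 and 74.6 CPM at T2 and 12.7, 76.5, 82.8 and 79 CPM at RW, so that M20s resembled 3 RW libraries and M25s lay between (log2 fold change 1.15 ± 1.08 (SE), adjusted p = 0.47). P5CDH, the next enzyme of that route, fell from 152, 152 and 285 CPM to 94, 61.6, 65.9 and 62.7 CPM (log2 fold change -1.47 ± 0.27 (SE), adjusted p = 0.0082). The list gave 1 higher and 6 lower without M25s and 2 lower in the pooled fit of summed profiles.

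More transcription factors of the drought and senescence programmes fell than rose. Of 25 tested members, 11 fell and 1 rose, beside 10.1% and 7.71% of all genes tested. The median of the list was -0.50. NAC019 and NAC055 are closely related NAC factors induced by ABA and drought. NAC055 was at 39.6, 35.2 and 80.8 CPM at T2 and 0.413, 3.09, 2.75 and 2.43 CPM at RW (log2 fold change -4.57 ± 0.63 (SE), adjusted p = 0.0026), and NAC019 was at 68.6, 68.7 and 71.9 CPM at T2 and 2.96, 7.05, 6.48 and 6.96 CPM at RW (log2 fold change -3.57 ± 0.30 (SE), adjusted p = 0.00035). HB12 and HB7, paired homeodomain factors downstream of ABA, both fell. HB12 was at 264, 273 and 338 CPM at T2 and 34.4, 10.6, 11.7 and 10.9 CPM at RW (log2 fold change -4.12 ± 0.48 (SE), adjusted p = 0.0014), whereas HB7 was at 209, 195 and 345 CPM at T2 and 34.4, 67.5, 69.9 and 75.1 CPM at RW (log2 fold change -2.02 ± 0.32 (SE), adjusted p = 0.0045) and stayed above the RW controls, at 30.6, 26.6, 31.2 and 30.9 CPM. RD26 and DREB2A, a NAC and an AP2 factor of the dehydration response, had log2 fold changes of -2.21 and -1.56, with adjusted p-values of 0.01 and 0.0064. CBF4 was weakly expressed, at 9.48, 8.15 and 1.07 CPM at T2 and 0.138, 0.326, 0.337 and 0.315 CPM at RW (log2 fold change -4.46 ± 0.75 (SE), adjusted p = 0.0053). The member that rose was WRKY53, a promoter of leaf senescence, at 4.51, 4.36 and 2.37 CPM at T2 and 4.37, 33.7, 34.4 and 33.6 CPM at RW (log2 fold change 2.81 ± 0.71 (SE), adjusted p = 0.024). Its level in M25s was within the T2 range, so the groups overlapped. The list gave 3 higher and 11 lower without M25s, 4 and 10 without M20s, and 0 and 4 in the pooled fit of summed profiles.

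Genes of chlorophyll breakdown and senescence changed in both directions. Of 13 tested, 2 rose and 4 fell, beside 7.71% and 10.1% of all genes tested. The median of the list was 0.10. SWEET15, a sucrose exporter also known as SAG29, was at 68.8, 64 and 143 CPM at T2 and 5.24, 1.28, 1.35 and 1.4 CPM at RW (log2 fold change -5.33 ± 0.64 (SE), adjusted p = 0.0015). The RW controls M21c and M24c were at 86.1 and 88.4 CPM, within the range of the T2 droughted libraries, and M22c and M23c were at 1.76 and 0.51 CPM. SGR2, a stay-green protein that acts on chlorophyll, fell from 48.9, 50.5 and 45.9 CPM to 2.72, 11.1, 9.51 and 9.88 CPM (log2 fold change -2.55 ± 0.43 (SE), adjusted p = 0.0053). SEN1, a gene induced by darkness and senescence, was at 8.45, 6.31 and 16.8 CPM at T2 and 0.413, 0.577, 0.704 and 0.659 CPM at RW (log2 fold change -4.15 ± 0.40 (SE), adjusted p = 0.00063). PAO, which opens the chlorophyll ring, had a log2 fold change of -1.36 (adjusted p = 0.014). RCCR, which reduces the product of PAO, rose from 30.9, 31.1 and 28 CPM to 109, 108, 105 and 109 CPM (log2 fold change 1.84 ± 0.11 (SE), adjusted p = 0.00011), and HCAR, an enzyme of the chlorophyll cycle, rose from 13.3, 13.3 and 42.2 CPM to 109, 144, 141 and 138 CPM (log2 fold change 2.54 ± 0.46 (SE), adjusted p = 0.0072). SAG12, a protease used as a marker of late senescence, was at 14.6, 14.2 and 28.8 CPM at T2 and 0.103, 34.8, 35.3 and 36.6 CPM at RW. M26s, M27s and M28s were thus above the T2 libraries and M25s was near 0, and the change did not pass the test (log2 fold change 0.48 ± 1.16 (SE), adjusted p = 0.79). The list gave 2 higher and 4 lower without M25s, 2 and 4 without M20s, and 1 and 0 in the pooled fit of summed profiles.

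Heat shock genes had the lowest median of the 19 lists. Of 18 tested heat shock proteins and factors, 16 fell and 1 rose, beside 10.1% and 7.71% of all genes tested. The median log2 fold change of the list was -5.62. The small heat shock proteins, which hold unfolding proteins in solution, included the widest falls of this list. HSP17.4 was at 909, 852 and 624 CPM at T2 and 1.89, 2.31, 3.33 and 3.52 CPM at RW (log2 fold change -8.17 ± 0.34 (SE), adjusted p = 3.9e-05). HSP17.6C was at 436, 408 and 310.2 CPM at T2 and 0.792, 1.18, 2.17 and 1.95 CPM at RW (log2 fold change -7.98 ± 0.42 (SE), adjusted p = 7.6e-05). The RW controls were at 4.29, 20.6, 4.97 and 2.4 CPM for HSP17.4, so the RW droughted libraries lay within or below their range. HSP18.2 fell from 145, 135 and 226 CPM to 1.03, 1.33, 1.77 and 1.26 CPM (log2 fold change -6.97 ± 0.29 (SE), adjusted p = 4.0e-05), and the mitochondrial HSP23.6 fell from 209, 199.8 and 189 CPM to 3.44, 0.853, 1.93 and 0.773 CPM (log2 fold change -6.85 ± 0.57 (SE), adjusted p = 0.00034). The chaperones HSP101, HSP90.1 and HSP70, which refold or disaggregate proteins, had log2 fold changes of -3.81, -5.7 and -3.8, with adjusted p-values of 8.4e-05, 7.6e-05 and 0.00024. HSFA2, a heat shock factor that sustains the response, was at 30.9, 25.1 and 22.5 CPM at T2 and 1.24, 0.502, 0.765 and 0.888 CPM at RW (log2 fold change -4.96 ± 0.31 (SE), adjusted p = 0.00013). HSFA3, which acts downstream of DREB2A, was the member that rose, from 8.63, 7.57 and 10.4 CPM to 16.1, 24.8, 26 and 25.7 CPM (log2 fold change 1.38 ± 0.22 (SE), adjusted p = 0.0044). The list gave 1 higher and 16 lower without M25s, and 5 lower in the pooled fit of summed profiles. Small heat shock genes are near copies of each other, and with reads kept only at their best Arabidopsis match, levels of single members are uncertain; the same holds for the RBCS, PIP and XTH families below.

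The circadian clock is a loop in which dawn-phased MYB factors repress dusk-phased genes and are repressed by them in turn. Of 20 tested clock genes, 7 rose and 8 fell, beside 7.71% and 10.1% of all genes tested. All dawn-phased MYB genes that were called fell. CCA1 was at 272, 273 and 183 CPM at T2 and 23.7, 43.8, 42.7 and 42.8 CPM at RW (log2 fold change -2.67 ± 0.27 (SE), adjusted p = 0.00073), and LHY was at 344, 347 and 239 CPM at T2 and 16.8, 28.6, 27.1 and 26.1 CPM at RW (log2 fold change -3.66 ± 0.25 (SE), adjusted p = 0.00017). RVE1, which links the clock to auxin, fell from 111, 109 and 51.7 CPM to 2.82, 2.01, 2.29 and 2.72 CPM (log2 fold change -5.21 ± 0.32 (SE), adjusted p = 0.00012). RVE8, an activator of evening genes, its coactivator LNK2 and the morning repressor PRR9 had log2 fold changes of -3.72, -2.67 and -3.36, with adjusted p-values of 8.4e-05, 0.00034 and 2.5e-05. The genes that rose were mostly dusk-phased. TOC1, the evening repressor of CCA1 and LHY, was at 5.81, 5.52 and 29.5 CPM at T2 and 232, 209, 208 and 202 CPM at RW (log2 fold change 3.97 ± 0.68 (SE), adjusted p = 0.0058). ELF4 and LUX, subunits of the evening complex, rose together: ELF4 was at 2.08, 2.1 and 4.7 CPM at T2 and 74.3, 57.8, 64.6 and 59.3 CPM at RW (log2 fold change 4.44 ± 0.35 (SE), adjusted p = 0.00027), and LUX was at 3.61, 2.02 and 8.7 CPM at T2 and 28.3, 21.7, 21.4 and 20.5 CPM at RW (log2 fold change 2.27 ± 0.47 (SE), adjusted p = 0.013). M20s was the highest T2 library in TOC1, ELF4 and LUX. PRR5 rose by 2.12 (adjusted p = 0.015), and PRR3, which stabilises TOC1 protein, rose by 2.71 (adjusted p = 0.00019). LKP2, a light-sensing F-box protein, was at 43.9, 42 and 35.9 CPM at T2 and 84.4, 101, 92.1 and 92.4 CPM at RW (log2 fold change 1.18 ± 0.13 (SE), adjusted p = 0.0011). Its close relative ZTL was near 0 in every library, with 2 counts in all at T2 and 58 at RW, which gives a ratio of 20.7 (95% counting interval 5.48 to 175); how reads are shared between the 2 genes is uncertain. The clock list gave 7 higher and 8 lower without M25s, 7 and 8 without M20s, and 1 and 2 in the pooled fit of summed profiles.

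The controls, which were never droughted, were divided among themselves in these genes. At T2 the 2 controls were at 264 and 328 CPM for CCA1 and 1.13 and 2.32 CPM for TOC1. At RW, M22c was at 237 CPM for CCA1 and 3.84 CPM for TOC1, close to the T2 controls, whereas M23c was at 52.6 and 191 CPM, close to the RW droughted libraries. The change of CCA1 differed between droughted plants and controls by -0.94 ± 0.92 (SE), adjusted p = 0.63, and that of TOC1 by -1.27 ± 1.48 (SE), adjusted p = 0.7 (log2, edgeR interaction test). PRR3 was the only clock gene that passed that test (1.97 ± 0.31 (SE), adjusted p = 0.014), and it was at 56.6 and 63.9 CPM in the T2 controls against 26.2, 25.2 and 31.4 CPM in the T2 droughted libraries.

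**Figure D4:**
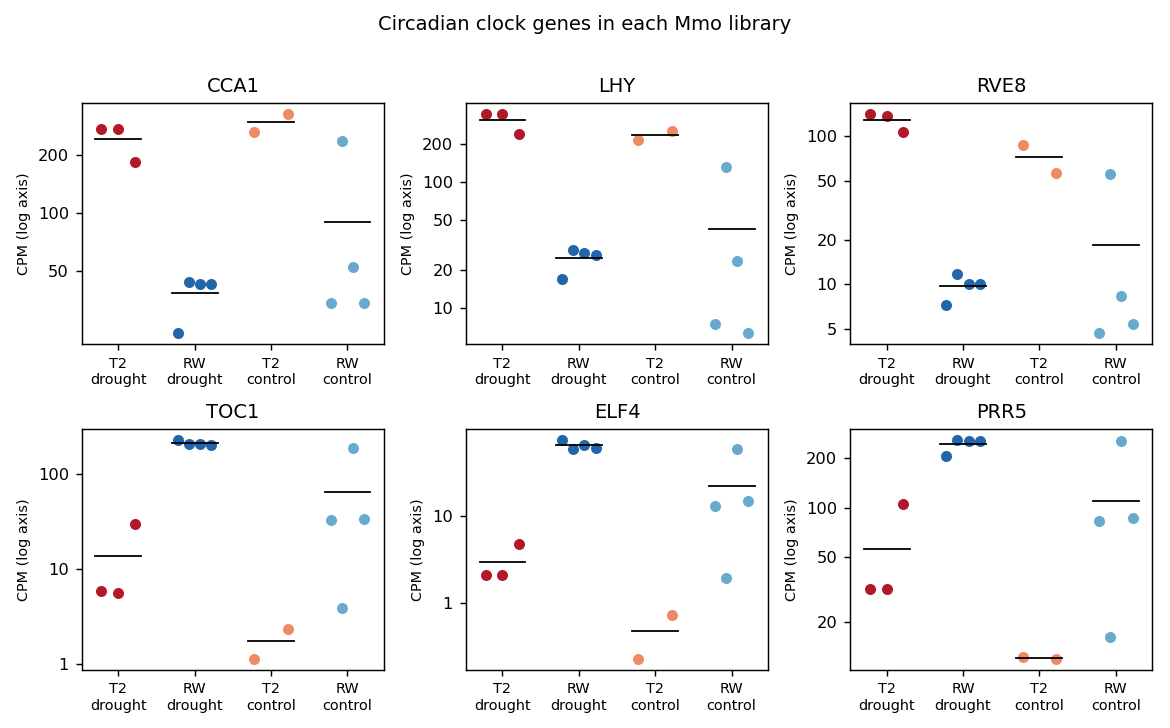
Level of 6 clock genes in each of the 13 Mmo libraries (CPM, log axis), by group; each point is 1 library and lines are group means. CCA1, LHY and RVE8 are high and TOC1, ELF4 and PRR5 low in both T2 groups, the RW droughted libraries show the opposite, and the RW controls are divided, with M22c at 237 CPM for CCA1 beside the T2 controls.

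Many genes that degrade leaf starch rose after rewatering. Of 34 tested genes of starch, sucrose and trehalose metabolism, 14 rose and 7 fell, beside 7.71% and 10.1% of all genes tested. The median of the list was 0.61 in droughted plants and 0.59 in the controls between the same sampling points. The median difference between the changes was -0.03. GWD1, the dikinase that phosphorylates starch and opens its breakdown, was at 115, 122 and 91.8 CPM at T2 and 1470.1, 2002, 2046 and 2004 CPM at RW (log2 fold change 4.09 ± 0.25 (SE), adjusted p = 0.00013). PHS2, a cytosolic glucan phosphorylase, was at 32.5, 33.5 and 50.9 CPM at T2 and 1632, 1175, 1216 and 1173 CPM at RW (log2 fold change 5.05 ± 0.29 (SE), adjusted p = 0.00011), and DPE2, the cytosolic enzyme that uses maltose, was at 28.3, 29.1 and 55.3 CPM at T2 and 476, 367, 361 and 344 CPM at RW (log2 fold change 3.36 ± 0.31 (SE), adjusted p = 0.00051). BAM3, the main plastid beta-amylase of the night, rose from 178, 168 and 71.4 CPM to 896, 1012, 1023 and 1047 CPM (log2 fold change 2.83 ± 0.35 (SE), adjusted p = 0.0017). SEX4, a glucan phosphatase, and LDA, a debranching enzyme, rose by 2.36 and 2.7, with adjusted p-values of 0.0064 and 0.00042. On the side of synthesis, APS1, the small subunit of ADP-glucose pyrophosphorylase, rose from 102, 98.5 and 84.1 CPM to 826, 363, 366 and 362 CPM (log2 fold change 2.33 ± 0.36 (SE), adjusted p = 0.004). BAM1, a beta-amylase that degrades starch under drought and in guard cells, moved against these genes, at 862, 848 and 418 CPM at T2 and 21.3, 12.3, 14.9 and 14.1 CPM at RW (log2 fold change -5.51 ± 0.35 (SE), adjusted p = 0.00013). BAM9, a catalytically inactive relative, also fell, from 94.4, 93 and 67.1 CPM to 2.86, 8.93, 9.12 and 8.65 CPM (log2 fold change -3.52 ± 0.40 (SE), adjusted p = 0.0012). TPS5, a regulatory member of the trehalose phosphate synthase family, rose by 1.68 (adjusted p = 0.019). This list gave the most calls in the pooled fit of summed profiles, with 10 higher and 2 lower.

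The controls were divided in the starch breakdown genes as well. GWD1 was at 122 and 125 CPM in the T2 controls and at 712, 281, 1793 and 695 CPM in the RW controls M21c, M22c, M23c and M24c, and PHS2 was at 53.2 and 45.7 and 393, 121, 1264 and 389 CPM. M23c thus reached the levels of the rewatered plants without having been droughted, M22c was nearest to the T2 controls, and M21c and M24c lay between. The change of GWD1 differed between droughted plants and controls by 1.28 ± 0.69 (SE), adjusted p = 0.35, and that of PHS2 by 1.61 ± 0.84 (SE), adjusted p = 0.34 (log2, edgeR interaction test). BAM1 was at 165 and 144 CPM in the T2 controls and 862, 848 and 418 CPM in the T2 droughted libraries. Its difference between the changes was -4.0 ± 1.0 (SE), adjusted p = 0.064, and did not pass the interaction test either. The part of the sampling hour in these changes was not tested.

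**Figure D5:**
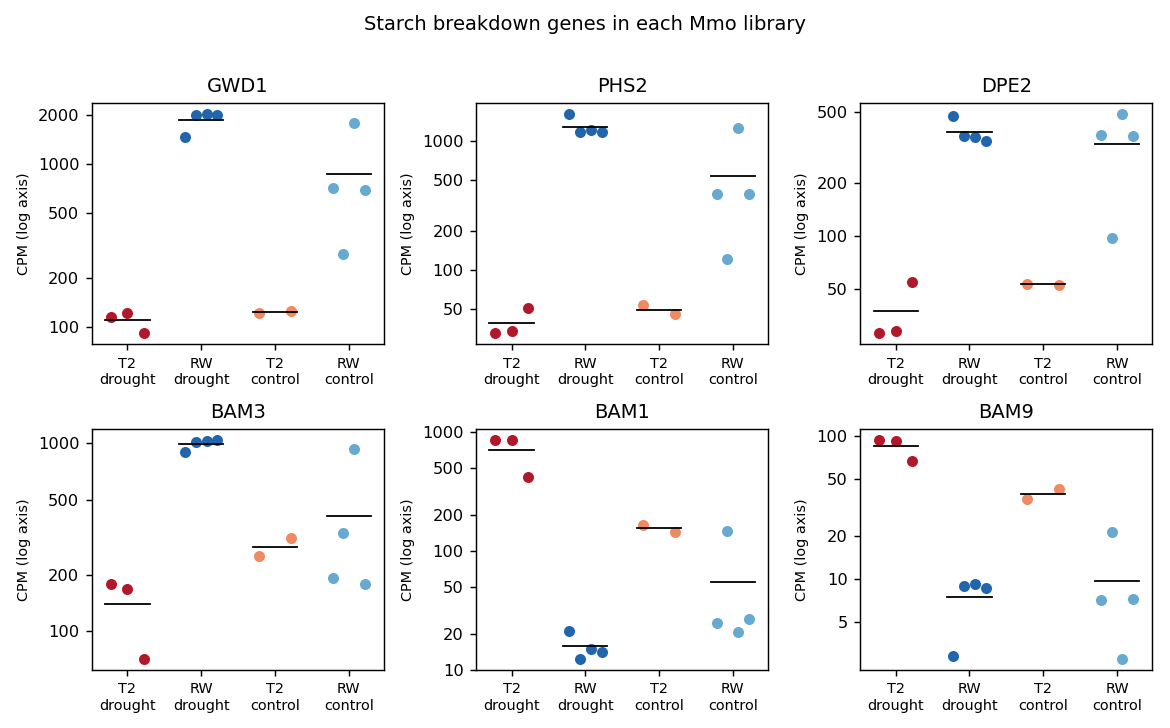
Level of 6 starch breakdown genes in each of the 13 Mmo libraries (CPM, log axis), by group; each point is 1 library and lines are group means. GWD1, PHS2, DPE2 and BAM3 are high in all RW droughted libraries and in the RW control M23c (1793 CPM for GWD1), while BAM1 is highest in the T2 droughted libraries, at 418 to 862 CPM.

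Most photosynthesis genes had fold changes above 0 after rewatering, but few passed the test. Of 42 tested light-harvesting and photosystem genes, 38 had a log2 fold change above 0, and 2 passed both thresholds, with a median of 0.62. These were PSBQ2, an extrinsic subunit of photosystem II, and PSBS, which triggers energy dissipation. PSBQ2 was at 1320.0, 1278 and 765 CPM at T2 and 4027, 2271, 2226 and 2248 CPM at RW (log2 fold change 1.26 ± 0.34 (SE), adjusted p = 0.032), and PSBS was at 1249.9, 1256 and 798 CPM at T2 and 2979, 1975, 2005 and 2003 CPM at RW (log2 fold change 1.02 ± 0.28 (SE), adjusted p = 0.033). In both, M25s was highest, and without M25s the median of the list was 0.35 and the list gave 1 call, with 0 in the pooled fit of summed profiles. Of 20 tested Calvin cycle genes, 6 rose and 2 fell, with a median of 0.71. The 4 small subunit genes of Rubisco, the carbon-fixing enzyme, rose: RBCS1A was at 1883, 1814 and 1284 CPM at T2 and 6590.1, 4304, 4509 and 4373 CPM at RW (log2 fold change 1.57 ± 0.30 (SE), adjusted p = 0.0087), and RBCS1B, RBCS2B and RBCS3B rose by 1.55, 1.45 and 1.45, with adjusted p-values of 0.013, 0.026 and 0.042. RCA, which keeps Rubisco active and is strongly rhythmic in Arabidopsis, was at 15616, 15562 and 5083 CPM at T2 and 8798, 10764, 10252 and 10823 CPM at RW and did not pass the test (log2 fold change -0.26 ± 0.45 (SE), adjusted p = 0.71). The members that fell were FBA1, a plastid aldolase, at 1568, 1569.8 and 1305 CPM at T2 and 710.4, 483, 451 and 492 CPM at RW (log2 fold change -1.48 ± 0.22 (SE), adjusted p = 0.0036), and CP12-3, a small linker protein, at 17.1, 16 and 21 CPM at T2 and 6.92, 4.39, 4.53 and 4.41 CPM at RW (log2 fold change -1.84 ± 0.21 (SE), adjusted p = 0.0013). The list gave 6 higher and 2 lower without M25s, 6 and 2 without M20s, and 0 and 1 in the pooled fit of summed profiles. Of 10 tested photorespiration genes 2 rose and 0 fell, a share of 20% called, with a median of 0.21. Of all genes tested, 7.71% rose and 10.1% fell. The 2 that rose code for parts of the glycine decarboxylase complex that releases CO2 in mitochondria. GDCT, the T-protein, was at 405, 401 and 239.6 CPM at T2 and 1829, 955, 923 and 975 CPM at RW (log2 fold change 1.74 ± 0.35 (SE), adjusted p = 0.011), and GDCH, the H-protein, was at 465, 433 and 332 CPM at T2 and 1941, 849, 818 and 896 CPM at RW (log2 fold change 1.45 ± 0.37 (SE), adjusted p = 0.026). The photorespiration list gave 2 higher without M25s, 1 without M20s and 1 in the pooled fit of summed profiles.

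The catalases moved apart. CAT2, the photorespiratory catalase of the day, was at 3170.3, 3151 and 1681 CPM at T2 and 1138, 825, 846 and 815 CPM at RW (log2 fold change -1.57 ± 0.29 (SE), adjusted p = 0.0081). CAT3, whose level peaks at dusk in Arabidopsis, was at 2554, 2553 and 2593 CPM at T2 and 5565, 13741, 13774 and 13687 CPM at RW (log2 fold change 2.18 ± 0.42 (SE), adjusted p = 0.0092), and was the most abundant gene that rose. CAT1 fell from 174, 158 and 273 CPM to 79.1, 73.5, 79.1 and 74.7 CPM (log2 fold change -1.4 ± 0.20 (SE), adjusted p = 0.0029), and the stress-induced peroxidase APX2 fell from 13.8, 14 and 5.84 CPM to 0.207, 0.452, 0.581 and 0.573 CPM (log2 fold change -4.62 ± 0.46 (SE), adjusted p = 0.00074). No other of the 14 antioxidant genes tested passed. The pooled fit of summed profiles called 0 antioxidant genes higher and 1 lower. In the controls CAT2 was at 2598 and 2617 CPM at T2 and 565, 2666, 661 and 542 CPM at RW, again with M22c at the T2 level.

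Aquaporins, the channels that carry water across membranes, fell more often than they rose after rewatering. Of 20 tested, 8 fell and 2 rose, with a median of -1.16, beside 10.1% and 7.71% of all genes tested. In the controls the list had a median of -0.78 between the same sampling points. The median difference between the changes was -0.19, and the interaction test called 1 of 21 members, which was lower. TIP3;1 and TIP3;2, vacuolar channels known from seeds, fell furthest. TIP3;1 was at 22.1, 19 and 78.9 CPM at T2 and 0.448, 0.0502, 0.153 and 0.372 CPM at RW (log2 fold change -7.31 ± 0.81 (SE), adjusted p = 0.0011), and TIP3;2 was at 15.2, 11.1 and 35.8 CPM at T2 and 0.0344, 0, 0.0612 and 0.315 CPM at RW (log2 fold change -7.61 ± 0.91 (SE), adjusted p = 0.0015). Neither exceeded 0.129 CPM in any of the 6 controls. PIP2;1, a plasma membrane channel, was at 523, 509 and 77.5 CPM at T2 and 63, 42.8, 38.7 and 39.1 CPM at RW (log2 fold change -3.02 ± 0.60 (SE), adjusted p = 0.01), with M20s close to M25s, and PIP1;2, the most abundant aquaporin at T2, was at 2469, 2396 and 869 CPM at T2 and 681, 813, 801 and 764 CPM at RW (log2 fold change -1.33 ± 0.36 (SE), adjusted p = 0.032). The controls of PIP1;2 were at 1613 and 2264 CPM at T2 and 722, 2318, 674 and 765 CPM at RW, and the difference between the changes did not pass the interaction test (-0.53 ± 0.72 (SE), adjusted p = 0.74). TIP2;1 fell from 94, 93.7 and 46.6 CPM to 22.9, 10.2, 9.42 and 7.73 CPM (log2 fold change -2.65 ± 0.43 (SE), adjusted p = 0.0049). The members that rose were PIP2;6, at 6.05, 5.2 and 10.2 CPM at T2 and 50.8, 38.1, 35.8 and 36.8 CPM at RW (log2 fold change 2.5 ± 0.28 (SE), adjusted p = 0.0011), and TIP1;2, at 181, 180.2 and 57.9 CPM at T2 and 387, 322, 332 and 322 CPM at RW (log2 fold change 1.28 ± 0.39 (SE), adjusted p = 0.046). Without M25s the list gave 1 higher and 11 lower, and 2 lower in the pooled fit of summed profiles.

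Expansins and xyloglucan endotransglucosylases, which loosen and remodel the wall of growing cells, showed no common direction. Of 25 tested, 4 rose and 5 fell, with a median of -0.09, beside 7.71% and 10.1% of all genes tested that rose and fell. XTH22, a touch-induced member, was at 194, 183 and 101 CPM at T2 and had a mean of 13.1 ± 6.79 CPM (SD, n = 4) at RW, with M25s lowest at 3.13 CPM (log2 fold change -3.61 ± 0.57 (SE), adjusted p = 0.0044), and XTH30 was at 15.2, 15.3 and 31.6 CPM at T2 and 0.827, 2.18, 2.48 and 2.15 CPM at RW (log2 fold change -3.43 ± 0.44 (SE), adjusted p = 0.0019). XTH23 and XTH25 were weakly expressed and had log2 fold changes of -3.92 and -3.66, with adjusted p-values of 0.00052 and 0.0022. EXPA1 rose from 16.5, 17.5 and 26.2 CPM to 108, 51.6, 54.3 and 49.9 CPM (log2 fold change 1.71 ± 0.34 (SE), adjusted p = 0.01). Leaving out M25s changed the list to 5 higher and 10 lower and its median to -0.99, and the pooled fit of summed profiles gave 0 higher and 1 lower.

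In flavonoid metabolism the late anthocyanin steps rose from very low levels. Of 13 tested genes, 6 rose and 1 fell, beside 7.71% and 10.1% of all genes tested. DFR, which commits flavonoids to anthocyanins, was at 0.511, 0.368 and 0.305 CPM at T2 and 3.1, 8.76, 9.45 and 10.9 CPM at RW (log2 fold change 4.33 ± 0.52 (SE), adjusted p = 0.0015), and LDOX, the next enzyme, was at 1.71, 2.13 and 1.11 CPM at T2 and 9.47, 25.3, 27.9 and 28.8 CPM at RW (log2 fold change 3.78 ± 0.47 (SE), adjusted p = 0.0018). UF3GT, which adds sugars to anthocyanins, had 7 counts in all at T2 and was at 1.34, 6.7, 6.36 and 7.99 CPM at RW (log2 fold change 6.19 ± 0.85 (SE), adjusted p = 0.0025). TT8, a bHLH factor that activates these genes, had 3 counts in all at T2 and 153 at RW, a ratio of 36.4 (95% counting interval 12.2 to 179), and PAP1, its MYB partner, rose from 4.72, 4.36 and 4.96 CPM to 10.7, 11.5, 11.3 and 12 CPM (log2 fold change 1.28 ± 0.14 (SE), adjusted p = 0.0011). CHI, an early step, fell (log2 fold change -2.31, adjusted p = 0.0056), and CHS, the entry enzyme, was at 3.22, 3.0 and 59.9 CPM at T2 and 34, 11.9, 12.8 and 14 CPM at RW (log2 fold change -0.28 ± 1.04 (SE), adjusted p = 0.87). CHS changed direction without M20s, to a log2 fold change of 2.53. The list gave 6 higher and 3 lower without M25s, 8 and 1 without M20s, and 0 and 1 in the pooled fit of summed profiles. The RW controls of DFR ranged from 0 CPM in M24c to 59.2 CPM in M22c.

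None of 11 tested ribosome biogenesis genes passed, with log2 fold changes between -0.07 and 0.70, and 2 were called higher without M20s. Of 21 glucosinolate genes, the sulfotransferase SOT16 rose (log2 fold change 1.19 ± 0.35 (SE), adjusted p = 0.042) and its relative SOT18 fell (log2 fold change -1.26 ± 0.32 (SE), adjusted p = 0.026), with T2 and RW libraries overlapping in both. The glucosinolate list gave 4 higher and 4 lower without M25s, 0 and 3 without M20s, and 0 and 0 in the pooled fit of summed profiles. KCS2, an elongase of long-chain fatty acids, was the only one of 15 tested cuticular wax genes that passed, and it fell from 16, 16.2 and 39.2 CPM to 6.44, 9.41, 10.2 and 10.9 CPM (log2 fold change -1.36 ± 0.36 (SE), adjusted p = 0.029). The wax list gave 4 lower without M25s, 0 without M20s and 0 in the pooled fit of summed profiles. Of 7 guard cell markers only FAMA passed, and it fell (log2 fold change -1.09 ± 0.22 (SE), adjusted p = 0.011). The call was lost without M25s or without M19s and in the fits of summed profiles, and without M20s 3 members were called lower.

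Among called genes that reached a mean of 10 CPM in the higher group and did not overlap between groups, PYL5 rose furthest, and LEA4-5 was among the 10 that fell furthest. Most of the others were in no list. AT5G35490 rose from 0.0301, 0.0788 and 0.153 CPM to 0.172, 29.1, 30.6 and 31.1 CPM (log2 fold change 8.03 ± 1.76 (SE), adjusted p = 0.015), and AT1G07050 rose from 0.0301, 0.105 and 0.344 CPM to 70.9, 23.9, 22.6 and 24.1 CPM (log2 fold change 7.86 ± 0.84 (SE), adjusted p = 0.00096). AT5G35490 stayed at the T2 level in M25s, whereas AT1G07050 was highest there. AT1G66100 fell from 9.69, 9.59 and 272 CPM to 0, 0.0502, 0.0612 and 0 CPM (log2 fold change -11.52 ± 1.88 (SE), adjusted p = 0.0048), and most of its T2 level came from M20s. AT2G42000 had 2617 counts at T2 and 1 at RW, a ratio of 3664 (95% counting interval 657 to 144768), and it too was highest in M20s. The 5 most abundant called genes in each direction included CAT3, RBCS2B and RBCS3B among those that rose and CAT2, PIP1;2 and P5CS1 among those that fell.

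In plants watered throughout, no gene passed the test between the same sampling points. In the controls edgeR called 0 of 20217 genes, 1469 genes (7.27%) had an unadjusted p under 0.05, and DESeq2 called 263. Leaving out the RW control M22c gave 147 calls. The change of droughted plants differed from that of controls in 388 of 21457 genes (1.81%), 172 higher (0.802%) and 216 lower (1.01%). Of these, 355 were among the 3593 genes called above in the same direction. Both tests use the same droughted libraries, so this overlap is largely built in. Without M25s the count of 388 became 1096, and without the T2 control M16c it became 49. The interaction test called 6 of 19 LEA and dehydrin genes lower, 8 of 19 heat shock genes lower, and 4 signalling genes lower and 1 higher of 22. LEA4-5 differed by -9.01 ± 1.35 (SE), adjusted p = 0.011, RAB18 by -5.43 ± 0.79 (SE), adjusted p = 0.01, and HSP18.2 by -9.81 ± 1.47 (SE), adjusted p = 0.011. P5CS2 differed by -2.34 ± 0.29 (SE), adjusted p = 0.005, ABI2 by -2.21 ± 0.33 (SE), adjusted p = 0.011, and PYL4 by 5.13 ± 1.07 (SE), adjusted p = 0.038. Of the clock genes 1 of 20 was called, and of the starch list 0 of 34. With near-identical libraries summed, edgeR called 0 genes, with 1647 at an unadjusted p under 0.05, and DESeq2 called 265.

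Mav, the C2 species treated the same way, had 5 libraries at T2 and 4 at RW. Here too some were nearly alike, with ratios to counting noise of 3.34 for A28s and A44s at T2. At RW the ratios among A30s, A38s and A42s were 1.92 to 3.53. Summing such libraries left 10 profiles of the 16 droughted libraries of both species. Its own comparison called 3524 genes higher and 3104 lower after rewatering of 19819 tested, or 33.4%, and the difference of this share from that of Mmo was not tested. The change differed between Mmo and Mav in 4780 of 21891 genes (21.8%), 2285 higher (10.4%) and 2495 lower (11.4%) in Mmo. With near-identical libraries summed the count was 196. RAB18 changed by -5.73 in Mav and -6.98 in Mmo, and the difference did not pass the test (-1.21 ± 0.54 (SE), adjusted p = 0.11). Of 21 LEA and dehydrin genes the change of 1 was called higher and of 1 lower in Mmo. ERD7, which rose in Mmo, had a log2 fold change of -1.68 in Mav (difference 2.89 ± 0.24 (SE), adjusted p = 3.0e-06).

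In the chlorophyll breakdown and senescence list, the change was called higher in Mmo for 9 of 13 genes and lower for 1. These shares stand beside 10.4% and 11.4% of all genes tested. For this list and the photosystem genes below, calls with near-identical libraries summed were not counted. SAG12 was between 56.4 and 653 CPM at T2 and between 0.809 and 2.23 CPM at RW in Mav, and its change differed by 8.78 ± 1.55 (SE), adjusted p = 0.00084. SGR2 had a log2 fold change of -7.1 in Mav and -2.55 in Mmo (difference 4.6 ± 0.49 (SE), adjusted p = 1.5e-05), and SEN1 rose in Mav from between 2.33 and 18.7 CPM to between 287 and 417 CPM while it fell in Mmo (-9.2 ± 0.85 (SE), adjusted p = 6.8e-06). PRODH1 rose in Mav from between 0.17 and 1.74 CPM to between 57.1 and 682 CPM, by 9.53, and the change of Mmo less that of Mav was -8.33 ± 1.4 (SE), adjusted p = 0.00058. TIP2;1 rose in Mav from between 3.05 and 14.4 CPM to between 90.7 and 499 CPM and fell in Mmo (-8.2 ± 0.83 (SE), adjusted p = 1.2e-05). BAM9, which fell in Mmo, changed by 0.01 in Mav (-3.5 ± 0.53 (SE), adjusted p = 0.00026). Among the photosystem genes the change of 12 of 42 was called lower in Mmo, beside 11.4% of all genes tested. Their median change was 0.62 in Mmo against 1.25 in Mav. Of these named differences, those in SEN1, TIP2;1, SGR2 and ERD7 also had an adjusted p under 0.05 with near-identical libraries summed (0.017, 0.033, 0.034 and 0.028), and those in SAG12, PRODH1 and BAM9 did not (0.15, 0.078 and 0.077). In Mav both sampling points were mostly run in another lane, lane 2, with 1 library of each in lane 7.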

How the data were processed

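Leaf RNA was sequenced by the study on a HiSeq instrument, and reads were mapped by the authors in protein space to the coding sequences of TAIR 10, the Arabidopsis thaliana annotation, keeping the best matches. The authors deposited 1 table per library with an expected count and a TPM value per gene; expected counts were whole and were used as deposited, and deposited TPM served only an alternative test. Tables hold locus identifiers only, so gene names are the standard Arabidopsis ones. M. suffruticosa was not used.

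Genes were filtered with filterByExpr, scaled by TMM and tested with edgeR's quasi-likelihood test (edgeR 4.0.16 in R 4.3.3), and p-values were adjusted over all genes tested by the Benjamini-Hochberg method. A call needed an adjusted p under 0.05 and a log2 fold change beyond 1 in size. Differences between changes were interaction terms. Standard errors (SE) were derived from the test, as the size of the log2 fold change divided by the square root of its F statistic. Libraries differing by under 4 times the counting noise were treated as nearly identical, fitted separately in the main comparison and summed as a check. Intervals on ratios of counts cover counting error only.

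Of each list, up to 4 non-overlapping called members with the widest change were named, beside members of key steps; over all genes, the 10 widest changes and the 5 most abundant called genes in each direction were considered. The comparison and the lists were chosen with earlier results of these data known. WRKY53, SOT16 and SOT18, whose groups overlap, and the flower gene PI were named after their values were seen. Alternatives were other scaling, no filter, stricter thresholds, DESeq2 (1.42.0), limma (3.58.1) on log2(TPM + 1) and log2(TPM + 0.1), wider fits and leaving out each library. The scripts were tested on simulated data.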

Additional observations from a re-analysis of the deposited data

Results flagged for a closer look

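Within the 4 RW droughted libraries, 1 library lay far from the other 3 in many values. The gap to the nearest library, as a share of the range of the 4, exceeded Dixon's 95% limit for the summed level of 12 of 20 quantities checked (the lists and the total count), a limit that chance passes in about 1 of 20 groups. The share was 0.843 for proline and raffinose-family genes, 0.939 for drought and senescence transcription factors, 0.959 for chlorophyll breakdown and senescence, 0.940 for photosystem genes, 0.977 for the Calvin cycle, 0.968 for photorespiration, 0.994 for expansins and xyloglucan endotransglucosylases, 0.943 for starch and sugars, 0.982 for antioxidant enzymes, 0.864 for ribosome biogenesis, 0.955 for glucosinolates and 0.934 for wax. Of 124 genes named here, 60 had 1 RW library apart in this way, and in 58 of them it was M25s. Since M26s, M27s and M28s are nearly identical, any profile that differs from theirs stands apart by this measure.

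The change between T2 and RW differed between droughted plants and controls in 388 genes, 24 of them named here. The widest such differences among named genes were -9.81 on the log2 scale for HSP18.2, 9.72 for AT5G35490 and -9.01 for LEA4-5. Each is the change of droughted plants less that of controls, and each was wider than the change of droughted plants alone. Between Mmo and Mav the change differed in 4780 genes, 51 of them named here, by -12.82 for AT1G66100, -9.20 for SEN1 and 8.78 for SAG12 (Mmo less Mav).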

How the results depend on the processing

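The counts for droughted Mmo were 1556 genes higher and 2037 lower. An adjusted p under 0.01 gave 798 and 1200, and a test against a log2 fold change of 1 (glmTreat) gave 406 and 863. With near-identical libraries summed edgeR gave 0 and 0 (3091 genes at an unadjusted p under 0.05), DESeq2 gave 618 and 1031, and the fit over all Mmo conditions gave 297 and 354; the last 2 were chosen after seeing the data. Leaving out 1 library at a time gave 997 (without M17s) to 2133 (without M25s) higher and 1471 (without M26s) to 2846 (without M25s) lower. In the controls the count of 0 became 101 in 1 fit over all Mmo libraries, 263 with DESeq2, 101 with DESeq2 on summed libraries, and 0 to 147 (without M22c) with 1 library left out. The 388 differences from controls became 39 at an adjusted p under 0.01, 39 with glmTreat, 1030 in 1 fit over all Mmo libraries, 1 in that fit with summed libraries, 0 with summed libraries alone, 1551 with DESeq2, and 49 (without M16c) to 1096 (without M25s) with 1 library left out. The 4780 differences from Mav became 2849 at an adjusted p under 0.01, 1864 with glmTreat, 196 with summed libraries, 1611 with DESeq2 on these, and 4009 (without A42s) to 5951 (without M25s) with 1 library left out. In Mav, summed libraries gave 2216 genes higher and 1917 lower. Why DESeq2 and edgeR differ was not tested.

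Of 115 named genes called in the 7 libraries, 115 kept their call with other size factors and without a filter, and 113 with DESeq2. With limma on log2(TPM + 1) and log2(TPM + 0.1) 106 and 112 kept it, and 97 to 112 with 1 library left out. An adjusted p under 0.01 left 86 of the calls, and glmTreat left 79. With near-identical libraries summed, 0 of 114 kept their call in edgeR and 95 in DESeq2. The fit of summed profiles over all Mmo conditions kept 44 of 114. The log2 fold change of CHS ranged from -0.80 (without M19s) to 2.53 (without M20s, adjusted p = 0.016 by edgeR) with 1 library left out, and was 0.90 and 1.11 with limma on log2(TPM + 1) and log2(TPM + 0.1). No paired analysis was possible because the T2 and RW libraries share no replicate number. With 2 distinct profiles at each stage, the summed comparison had 2 residual degrees of freedom, and genes near 0 rest on few counts.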
